A study of Mus musculus with 7 samples.

Results

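Rgs1, Rgs2, Rgs3, Rgs10, Rgs14, Rgs16, Rgs18 and Rgs19, genes of the family of regulators of G protein signalling, were followed across the 3 groups of sorted mouse thymocytes. The 8 genes were chosen by name, as family members that damp signals of chemokine and sphingosine 1-phosphate receptors, and no value entered the rule, although earlier results of these data were known when they were chosen. They were read by 18 probe sets that carried exactly 1 gene symbol, of 18193 genes so named on the array. When a receptor for a chemokine or lipid is engaged, the alpha subunit of its G protein binds GTP and separates from the beta and gamma subunits, and both parts pass the signal on. An RGS protein binds the active alpha subunit and speeds the hydrolysis of its GTP, which ends the signal. In the thymus such receptors guide developing T cells between compartments and out into the blood.

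PLZF, a zinc finger transcription factor encoded by Zbtb16, directs the development of natural killer T (NKT) cells, which recognise lipids bound to CD1d. The first group was stage 1 NKT cells from Valpha14 TCR transgenic mice (2 arrays). The second was stage 1 NKT cells of PLZF-deficient Luxoid mutants that also carried the Valpha14 transgene (3 arrays), and the third was CD4+ CD8- (CD4SP) thymocytes of wild-type mice (2 arrays). Stage 1 NKT cells were sorted as positive for the CD1d tetramer, low for CD24, and negative for CD44 and NK1.1. All mice were on the C57BL/6J background and 4 to 6 weeks old, and each array came from the pooled cells of several mice, named as a biological replicate. Both NKT groups carried the transgene and the CD4SP mice did not, so cell type and transgene cannot be told apart in comparisons with CD4SP. The promoter of the transgene is not given in the sources used here. 1 label of the CD4SP samples repeats the stage 1 NKT sort, against their titles. Their Cd4 intensities of 5824 and 6754, against 1888 to 2360 in the 5 NKT arrays, and their Zbtb16 intensities of 87.3 and 61.8, against 1857 to 3488, followed the titles. The Zbtb16 probe set of the Luxoid cells read 1857, 2774 and 2645, so its RNA level does not check the label of PLZF deficiency.

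Values are deposited intensities, and differences are on the log2 scale with the standard error of the limma fit. A gene was called when its limma p, adjusted by Benjamini-Hochberg over the 10874 genes tested, was under 0.05, and it was tested when its intensity reached 82.0, the 50th percentile of all values, in at least 2 arrays. Array medians were 79.6 to 83.7, and array pairs correlated at 0.984 to 0.992 within groups and 0.968 to 0.992 between them. The arrays numbered 1 in each group had Kdm5d, a Y-linked gene, at 6.49 to 11.7, and the others at 758 to 2331. Xist was at 36.1 in Luxoid array 2 and 29.0 in CD4SP array 2, and at 3888 or more elsewhere, so stage 1 NKT array 2 and Luxoid array 3 read both kinds of transcript and are called the mixed-sex pools. Each result below rests on 2 or 3 arrays a group, and that number limits its precision.

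Of the 8 genes, 7 passed the filter and Rgs18 did not. Between Luxoid and control stage 1 NKT cells 1 of 7 was higher and 0 were lower, where 1.55% of all genes tested were called, 0.901% as higher and 0.653% as lower. Between stage 1 NKT and CD4SP cells 1 was higher and 1 lower, beside 14.9% of all genes called, 10.8% higher and 4.08% lower. Between Luxoid stage 1 NKT and CD4SP cells 1 was higher and 2 lower, beside 16.8% of all genes, 11.3% higher and 5.51% lower. The median log2 difference of the 7 was -0.14 in the first comparison, where that of all genes tested was -0.03. It was -0.39 in the second, against 0.06, and -0.41 in the third, against 0.02. The arrays of the groups did not overlap for 4 of 7 genes in the first comparison, where 26.7% of all genes tested did not overlap. They did not overlap for 5 in the second, beside 60.2%, and for 6 in the third, beside 46.0%.

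**Figure D1:**
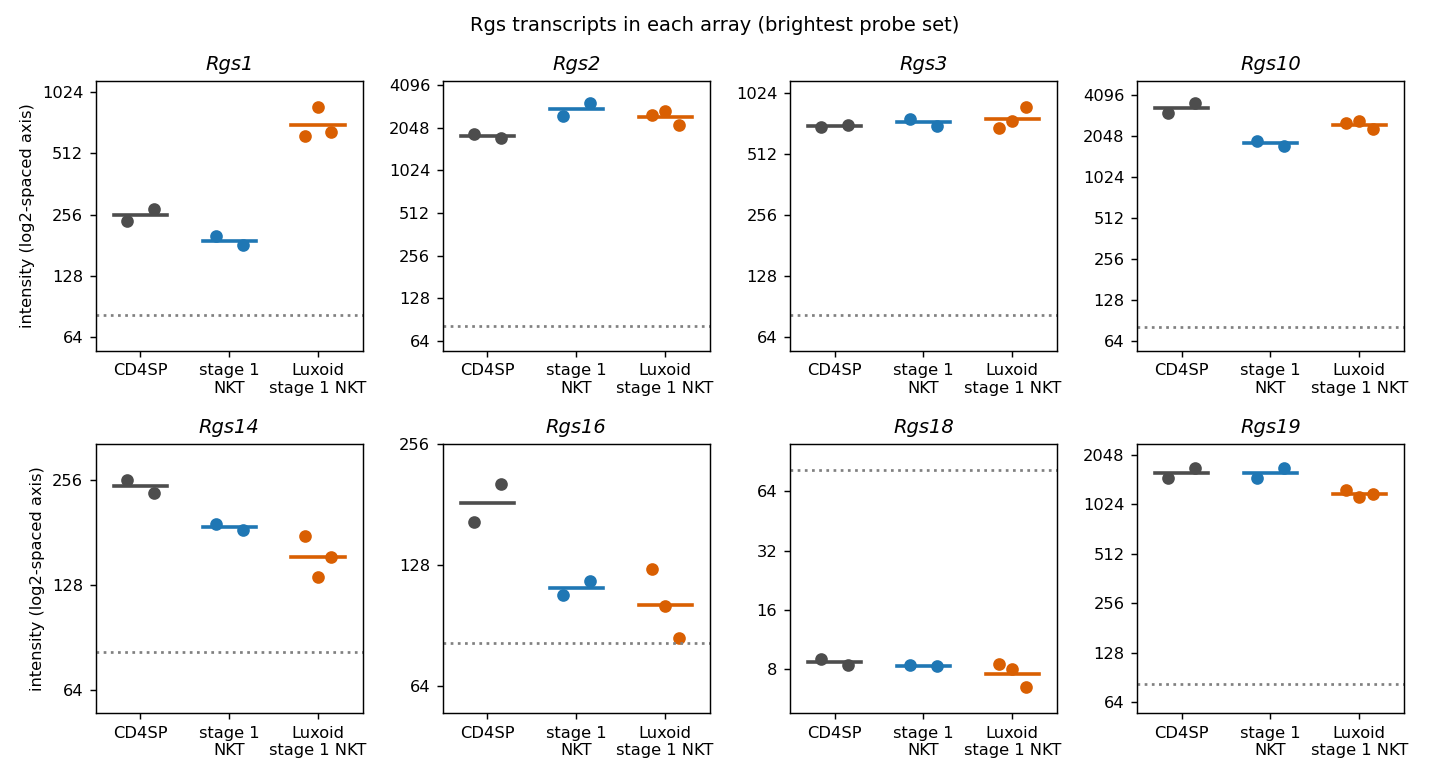
Intensity of each Rgs gene in each of the 7 arrays (points; log axis), by group, with the group's geometric mean as a bar. Rgs1 lies at 621 to 862 in the 3 Luxoid arrays and at 274 or below in the other 4, and Rgs18 lies under 9 in every array.

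Rgs1 was the member that differed most, and it was higher in the PLZF-deficient cells than in either other group. Rgs1 belongs to the R4 subfamily, small proteins of little more than an RGS domain, and in lymphocytes it is known to reduce migration towards chemokines. Its 1 probe set read 199.7 and 180.5 in control stage 1 NKT cells. Luxoid cells gave 621, 862 and 649, and CD4SP cells gave 238 and 274. The 3 Luxoid arrays were higher than every other array, with no overlap. Luxoid cells exceeded control stage 1 NKT cells by 1.89 ± 0.18 on the log2 scale (95% interval 1.49 to 2.29), or 3.70-fold (limma adjusted p = 0.00124). By size of increase that put Rgs1 at place 26 of 10874 genes. Luxoid cells exceeded CD4SP cells by 1.46 ± 0.18, or 2.76-fold (limma adjusted p = 0.000785). Control stage 1 NKT arrays lay below both CD4SP arrays, but the difference of -0.43 ± 0.19 did not pass the test (limma adjusted p = 0.184).

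Of 21 alternative settings, 20 kept the call of Rgs1 between Luxoid and control NKT cells. They are not all distinct, since leaving out either CD4SP array gave the same fit as the NKT groups alone (1.89 ± 0.18). Without both mixed-sex pools the difference stayed at 1.87, with an adjusted p of 0.100 in limma, in a fit that called 10 genes of 10874 in all. Against CD4SP cells all 21 settings kept it.

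Markers of other cells were read beside Rgs1, each list as a sum of intensities. The sum of 8 NK cell markers was 1567 to 1710 in control stage 1 NKT arrays, 2270 to 2441 in Luxoid arrays and 1615 to 1649 in CD4SP arrays. Of the 5 tested, Fcer1g was called as higher in Luxoid than in control cells, at 843 to 982 against 253 and 218 (1.98 ± 0.15, limma adjusted p = 0.000554). Itga2, at 294 to 358 against 180 and 237, did not overlap but was not called (limma adjusted p = 0.187). Prf1, Tyrobp and Gzma overlapped between the NKT groups and were not called. By geometric mean Prf1 was lower in Luxoid than in control cells, at 823.9 against 960.8. Tyrobp was higher, at 110.9 against 84.77, and so was Gzma, at 107.7 against 88.54. The tested NK cell markers thus did not all move the same way. Ncr1 was under the filter in every array. The sum of 6 CD8 lineage markers was 1141 to 1196, 1319 to 1678 and 656 to 830 in the same order. Most of it in the NKT arrays was Nkg7, at 805 to 1256 there and 84.3 and 96.6 in CD4SP arrays. Cd8b1 went the other way, at 43.8 to 123 in NKT arrays and 223 and 268 in CD4SP arrays. The sum of 8 markers of immature double-positive thymocytes was 2185 to 2541, 2598 to 2759 and 6980 to 8025. Most of it was Cd4, which CD4SP cells also express, at 1888 to 2360 in NKT arrays and 5824 and 6754 in CD4SP arrays. Rag1, Rag2 and Ptcra were under the filter in every array. All 5 tested genes of the list were called as lower in control NKT than in CD4SP cells, and 4 in Luxoid cells. Dntt had geometric means of 58.5 in control NKT, 84.4 in Luxoid and 493 in CD4SP cells. Those of Cd24a were 14.1, 28.1 and 242. Cd8a, in both lists, was higher in Luxoid than in control cells by 0.86 ± 0.16 (limma adjusted p = 0.0342). The 2 gamma delta T cell markers summed to 309 to 423, 138 to 189 and 94.6 to 97.8, and only Sox13 was tested. It read 199 and 348 in control NKT arrays and 64.9 to 115 in Luxoid arrays. That difference of -1.49, without overlap, was not called. Regulatory T cell markers, 7 in all, summed to 2449 to 2951, 2210 to 3187 and 3484 to 3979, and Nrp1 was lower in Luxoid than in control cells (-1.74 ± 0.18, limma adjusted p = 0.00238). Against CD4SP cells 2 of the 7 were higher and 4 lower in control NKT cells, and 1 higher and 6 lower in Luxoid cells. Foxp3, among the lower, had geometric means of 163.5 in control NKT, 170.5 in Luxoid and 456.6 in CD4SP cells. Erythroid markers, all under the filter, summed to 157 to 168, 169 to 184 and 169 to 192. Sums for B cells (417 to 453 and 408 to 502), myeloid or dendritic cells (465 to 563 and 520 to 578) and thymic epithelium (651 to 739 and 736 to 864) overlapped between the NKT groups, with no gene called between them. Immediate early and stress genes, 10 in all, summed to 2902 to 3792 in control NKT arrays, 3963 to 4544 in Luxoid arrays and 4105 to 4140 in CD4SP arrays. None of the 5 of them that were tested was called between the NKT groups, and the part of these markers in the Rgs1 difference was not tested. In sorted bulk samples, fewer cells expressing a gene and less of its RNA per cell cannot be told apart.

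On chromosome 1 the RefSeq order (GRCm38.p6) of protein-coding genes places Rgs2 and Rgs13 before Rgs1, and Rgs21 and Rgs18 after it. No tested neighbour was called between control and Luxoid cells. Rgs2 differed by -0.17 and the next 3 genes on that side, Uchl5, Ro60 and Glrx2, by -0.13, -0.14 and -0.17 (limma adjusted p = 0.757 to 0.855). Rgs13 was at 5.36 or below, Rgs18 at 8.96 or below and Brinp3 at 20.9 or below in every array, all under the filter.

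Rgs2 was higher in stage 1 NKT cells than in CD4SP cells. It is an R4 protein that acts mainly on G alpha q. The probe set with the highest mean read 2487 and 3031 in control stage 1 NKT arrays, 2516, 2699 and 2150 in Luxoid arrays and 1837 and 1727 in CD4SP arrays. Every NKT array was above both CD4SP arrays, and the 2 NKT groups overlapped. Control NKT cells exceeded CD4SP cells by 0.62 ± 0.17, or 1.54-fold (limma adjusted p = 0.0439), a call of this probe set that 12 of 21 alternative settings kept. Leaving out stage 1 NKT array 1 gave an adjusted p of 0.0843 and array 2 one of 0.209 in limma. Leaving out CD4SP array 1 gave 0.128, CD4SP array 2 gave 0.190 and Luxoid array 1 gave 0.0596, all limma adjusted p. Luxoid cells exceeded CD4SP cells by 0.46 ± 0.16, which was not called (limma adjusted p = 0.0865), and differed from control NKT cells by -0.17 (95% interval -0.53 to 0.19; limma adjusted p = 0.772).

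A further 3 probe sets carried the Rgs2 symbol. One read 1757 and 1761 in control NKT arrays, 1369 to 1721 in Luxoid arrays and 922 and 871 in CD4SP arrays. Another read 1616 and 1662, 1398 to 1659, and 930 and 873 in the same order. When every probe set was tested (20360 in all), these gave 0.97 ± 0.16 and 0.86 ± 0.16 between control NKT and CD4SP cells (limma adjusted p = 0.00712 and 0.00992). Between Luxoid and CD4SP cells both gave 0.78 (limma adjusted p = 0.0106 and 0.00879). The 3 bright probe sets thus had the same direction against CD4SP, with a smaller difference in the brightest. The last stayed under the filter in every array.

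**Figure D2:**
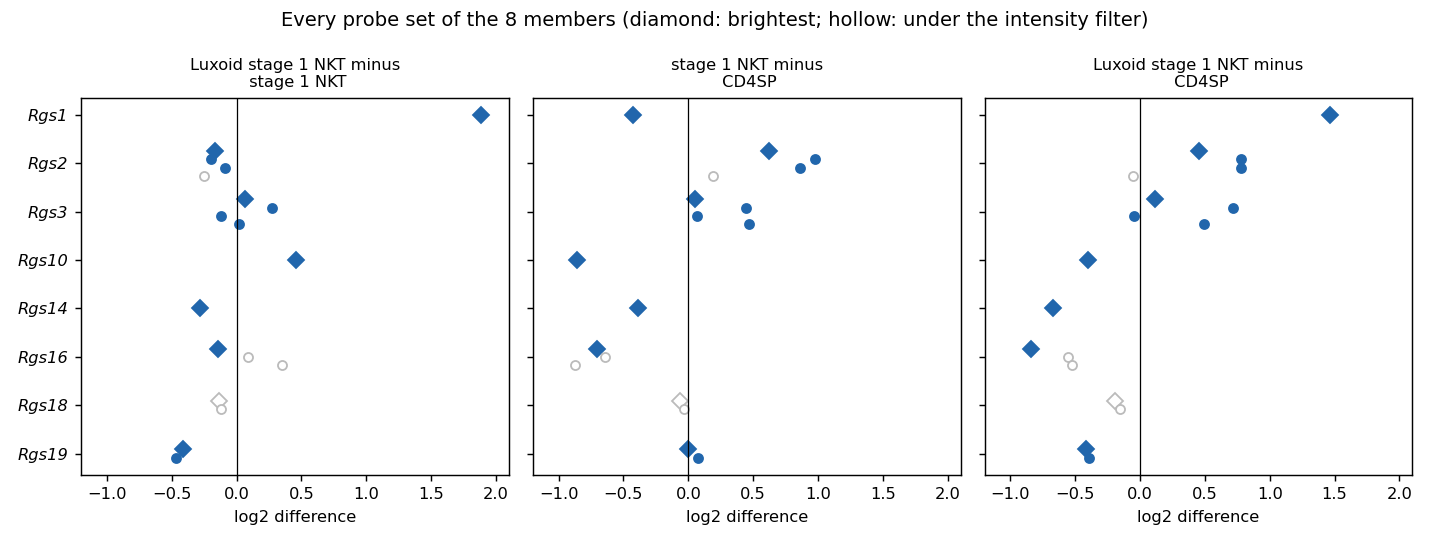
Log2 difference of each of the 18 probe sets of the 8 Rgs genes in the 3 comparisons, with the main probe set of each gene marked apart from its other probe sets. The 3 bright Rgs2 probe sets sit at 0.62 to 0.97 between stage 1 NKT and CD4SP cells, and those of Rgs3 run from 0.05 to 0.47.

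Rgs3 is an R4 protein made in short and long forms, and its probe sets did not give 1 answer. RefSeq (GRCm38.p6) lists start windows at 2 places, shown here because the gene has alternative starts. The 250 bases before each start are printed on the plus strand, with the letters TATAAA in capitals.
Rgs3 start 1, chr4:62559597-62559846: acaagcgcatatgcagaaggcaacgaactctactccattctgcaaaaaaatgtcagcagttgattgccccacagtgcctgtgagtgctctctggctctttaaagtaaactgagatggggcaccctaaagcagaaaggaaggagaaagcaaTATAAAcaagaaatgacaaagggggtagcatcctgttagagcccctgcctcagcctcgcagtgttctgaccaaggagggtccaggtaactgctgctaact
Rgs3 start 2, chr4:62619422-62619671: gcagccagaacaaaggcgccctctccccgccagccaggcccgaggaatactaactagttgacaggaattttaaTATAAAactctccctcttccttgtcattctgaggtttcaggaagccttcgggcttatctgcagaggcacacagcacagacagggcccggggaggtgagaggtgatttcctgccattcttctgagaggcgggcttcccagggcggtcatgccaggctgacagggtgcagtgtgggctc
The letters began 100 bases before the first start and 177 before the second. Whether they serve as a promoter element was not tested. Of 32851 promoter windows of 300 bases, 13.6% held TATAAA on either strand. The table held windows for 5 of the 8 genes (Rgs2, Rgs3, Rgs10, Rgs16 and Rgs19), 8 windows in all. Rgs19 also had several windows, which are not printed. Only the windows of Rgs3 held TATAAA. A further 3 motifs were searched on both strands and none was found in the 8 windows. The first, TGANTCA, which AP-1 binds, was held by 7.81% of all windows. The next, TGACGTCA, which CREB binds, was held by 1.79%. The last, TGGAAAA, which NFAT binds, was held by 6.73%.

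The brightest Rgs3 probe set read 763 and 706 in control stage 1 NKT arrays, 692, 748 and 871 in Luxoid arrays and 698 and 716 in CD4SP arrays, and all groups overlapped. Its differences were 0.06 between Luxoid and control NKT cells (95% interval -0.27 to 0.39), 0.05 between control NKT and CD4SP cells (-0.31 to 0.42) and 0.12 between Luxoid and CD4SP cells (-0.21 to 0.45). None was called (limma adjusted p = 0.929, 0.849 and 0.642). The second probe set read 479 and 447 in control NKT arrays, 560, 589 and 528 in Luxoid arrays and 352 and 329 in CD4SP arrays, with no overlap between any groups. In the test of every probe set it was higher in Luxoid than in CD4SP cells by 0.72 ± 0.14 (limma adjusted p = 0.0106), and its 0.44 between control NKT and CD4SP cells was not called (limma adjusted p = 0.101). The other two, at 351 to 489 and 270 to 454 over all arrays, were not called in any comparison. Which transcript each of them reads is not given in the sources used here, and it was not tested whether the probe sets differ from each other.

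Rgs16 was lower in Luxoid stage 1 NKT cells than in CD4SP cells. This R4 protein is induced by activation of T cells and acts on G alpha i and q. Its main probe set read 108 and 117 in control NKT arrays, 125, 101 and 84.2 in Luxoid arrays and 164 and 204 in CD4SP arrays. Both CD4SP arrays were above all 5 NKT arrays, and the NKT groups overlapped. Luxoid cells were below CD4SP cells by a log2 difference of -0.84 ± 0.19, or 1.79-fold (limma adjusted p = 0.0184). Control NKT cells differed from CD4SP cells by -0.70 ± 0.21, which missed the threshold (limma adjusted p = 0.0574), and the NKT groups by -0.14 (95% interval -0.57 to 0.30; limma adjusted p = 0.856). The Luxoid call was lost without CD4SP array 2 (limma adjusted p = 0.158) and without both mixed-sex pools (0.0968). The second probe set pointed the same way against CD4SP, at -0.64 in control and -0.55 in Luxoid cells, but it was over the filter in CD4SP array 2 alone and was not tested.

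Rgs18, an R4 protein best known in megakaryocytes and platelets, was not measured above the filter. Its 2 probe sets stayed between 3.87 and 8.96 in all 7 arrays, so no fold is given. With no intensity filter it was not called in any comparison (limma adjusted p = 0.521 to 0.891). The 6 megakaryocyte and platelet genes on the array summed to 320 to 343 in control NKT arrays, 305 to 354 in Luxoid arrays and 357 to 400 in CD4SP arrays. Of these, Gp9 (127 to 154 in every array) and Itga2b (59.6 to 120) passed the filter and were called in no comparison, and Pf4 and Ppbp were among the 4 under it.

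Rgs10 was lower in stage 1 NKT cells than in CD4SP cells. It belongs to the R12 subfamily and is among the smallest RGS proteins, acting on G alpha i. The probe set read 1899 and 1751 in control NKT arrays, 2557, 2633 and 2323 in Luxoid arrays and 3049 and 3598 in CD4SP arrays. The 3 groups formed 3 separate levels, with Luxoid cells between the other two. Control NKT cells were below CD4SP cells by a log2 difference of -0.86 ± 0.16, or 1.82-fold (limma adjusted p = 0.00758). Without stage 1 NKT array 2 (limma adjusted p = 0.0606), without CD4SP array 2 (0.0630) and without both mixed-sex pools (0.0887) it was no longer called. The steps on either side of the Luxoid level did not pass the test. Luxoid cells were above control NKT cells by 0.46 ± 0.14 (95% interval 0.13 to 0.78; limma adjusted p = 0.230) and differed from CD4SP cells by -0.41 ± 0.14 (limma adjusted p = 0.0908).

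Rgs14 was lower in Luxoid cells than in CD4SP cells. It is also of the R12 subfamily and carries, besides its RGS domain, Ras-binding domains and a GoLoco motif that holds G alpha i in its GDP form. It read 191 and 184 in control NKT arrays, 177, 135 and 154 in Luxoid arrays and 257 and 236 in CD4SP arrays. No groups overlapped, and the order was CD4SP, control NKT, Luxoid from high to low. Luxoid cells differed from CD4SP cells by -0.67 ± 0.15, or 1.60-fold lower (limma adjusted p = 0.0181). The call was lost without CD4SP array 1 (limma adjusted p = 0.119), without CD4SP array 2 (0.0783) and without both mixed-sex pools (0.0994). Neighbouring levels were not separated by the test, with -0.39 between control NKT and CD4SP cells (limma adjusted p = 0.162) and -0.28 between the NKT groups (95% interval -0.63 to 0.06; limma adjusted p = 0.541).

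Rgs19, a member of the RZ subfamily that acts on G alpha i and z, had its lowest values in Luxoid cells, and no difference was called. The main probe set read 1471 and 1696 in control NKT arrays, 1248, 1128 and 1184 in Luxoid arrays and 1474 and 1706 in CD4SP arrays. All Luxoid arrays were below the other 4, whose 2 groups overlapped. Luxoid cells differed by -0.41 ± 0.14 from control NKT cells (95% interval -0.74 to -0.09; limma adjusted p = 0.294) and by -0.42 ± 0.14 from CD4SP cells (limma adjusted p = 0.0818). The second probe set read 788 and 760, 614, 519 and 550, and 722 and 746 in the same order. It gave -0.47 between the NKT groups and -0.39 against CD4SP cells, in the same direction and also not called (limma adjusted p = 0.240 and 0.111).

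**Figure D3:**
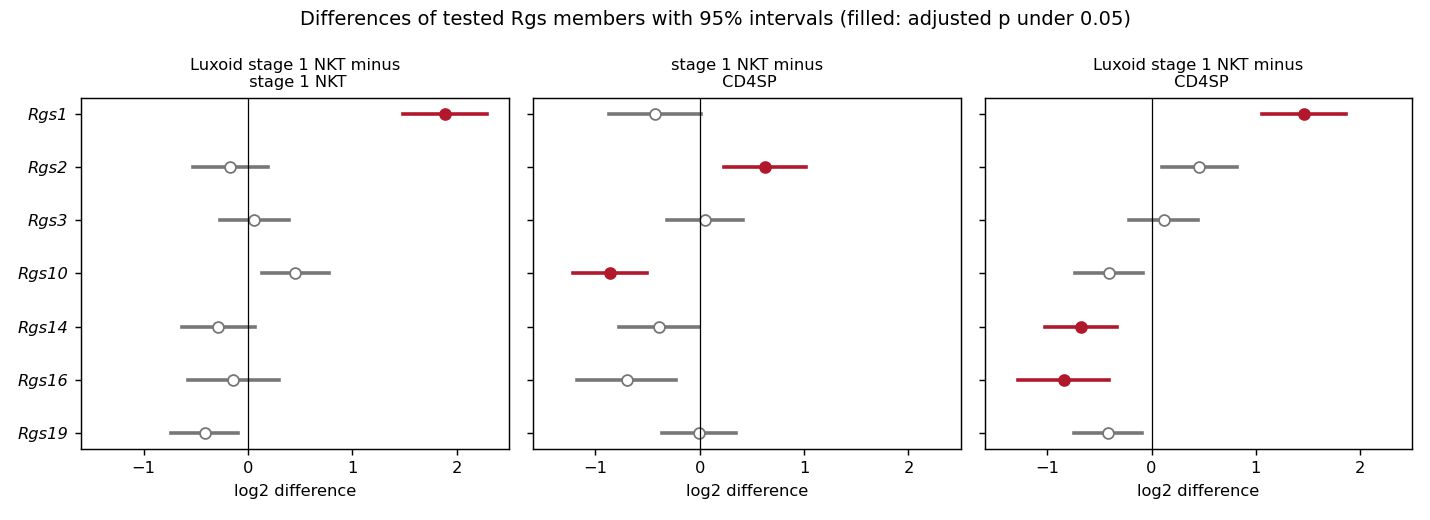
Log2 difference of the 7 tested Rgs genes in the 3 comparisons, with 95% intervals of the limma fit. Filled points mark calls at an adjusted p under 0.05. Rgs1 is the sole call between the NKT groups, at 1.89, and the only gene over 1 in any comparison.

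Across the called members, 3 patterns were seen. Rgs1 was high in Luxoid cells alone, Rgs2 was high in both NKT groups, and Rgs10, Rgs14 and Rgs16 were highest in CD4SP cells. For each called member the 2 of 10873 other genes whose centred log2 values over the 7 arrays were nearest were named, by root mean square difference. For Rgs1 these were Cers6, a ceramide synthase, at 0.234, and Tubb3, a beta tubulin, at 0.273. Cers6 had geometric means of 344 in control NKT, 890 in Luxoid and 359 in CD4SP cells. For Rgs2 they were BC048403 at 0.0462 and Fasn, fatty acid synthase, at 0.0586. Nearest to Rgs10 were Patj at 0.0917 and Lsm11 at 0.0984, and to Rgs14 Pan2 at 0.0405 and Zfp276 at 0.0517. Irf9, at 0.0733, and Gm20559, at 0.0958, were nearest to Rgs16. These are descriptions over 7 arrays, with no test.

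The receptors whose signals RGS proteins end were read next, ahead of the G proteins. Beside the counts of each list below, 1.55% of all genes tested were called between the NKT groups. Against CD4SP cells the shares were 14.9% for control NKT and 16.8% for Luxoid cells. Of 10 chemokine receptors tested, 0 were higher and 2 lower in Luxoid than in control stage 1 NKT cells. Ccr2 read 1776 and 1732 in control arrays and 256 to 413 in Luxoid arrays. Its difference was -2.50 ± 0.27 (limma adjusted p = 0.00266). The call was lost without stage 1 NKT array 2 (-2.52) and without both mixed-sex pools (-2.73). Cxcr3 read 69.3 and 87.0 in control arrays and 29.5 to 41.8 in Luxoid arrays (-1.13 ± 0.18, limma adjusted p = 0.0208). It is given no fold, since the control mean of 77.7 is under the filter, and 12 of 20 settings kept its call. Among those that lost it, leaving out either CD4SP array is the same fit as the NKT groups alone. Against CD4SP cells, 5 were higher and 2 lower in control NKT cells and 5 higher and 3 lower in Luxoid cells. Ccr2 exceeded CD4SP cells by 4.95 in control and 2.45 in Luxoid cells (limma adjusted p = 3.08e-05 and 0.000546). For Cxcr6, which binds Cxcl16, the differences were 4.48 and 3.63 (limma adjusted p = 1.11e-05 and 1.18e-05), and for Ccr4 3.47 and 2.42 (limma adjusted p = 5.65e-05 and 0.000156). Ccr8 was lower, by log2 differences of -1.95 and -2.80 (limma adjusted p = 0.00452 and 0.000338), and without both mixed-sex pools its control call was lost. Both CD4SP arrays were under the filter for Ccr2 and Cxcr6, and all Luxoid arrays for Ccr8, so these sizes are not exact. As folds, Ccr2 was at least 21.4 in control and 3.78 in Luxoid cells, and Cxcr6 at least 11.1 and 6.16. Ccr8 was lower in Luxoid cells by at least 3.89-fold.

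Of 15 lipid receptors tested, 0 were higher and 1 lower in Luxoid than in control NKT cells. That was Ptger4, a prostaglandin E2 receptor, at 2175 and 1856 in control arrays and 793 to 955 in Luxoid arrays. It differed by -1.22 ± 0.15 (limma adjusted p = 0.00435). The call was lost without stage 1 NKT array 1 (-1.10) and without both mixed-sex pools (-1.32). In control NKT against CD4SP cells 1 was higher and 3 lower, among them S1pr1, the sphingosine 1-phosphate receptor of thymic exit. S1pr1 read 1077 and 1395 in control NKT arrays, 1910 to 2125 in Luxoid arrays and 2122 and 2678 in CD4SP arrays. Its -0.96 ± 0.19 between control NKT and CD4SP cells was called (limma adjusted p = 0.0103). The call was lost without stage 1 NKT array 1, without CD4SP array 2 and without both mixed-sex pools. Gpr132, a receptor for lysophospholipids and oxidised fatty acids, was lower than in CD4SP cells by a log2 difference of -2.12 in control and -1.49 in Luxoid cells, in all 21 settings. In Luxoid against CD4SP cells 1 lipid receptor was higher and 4 were lower.

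Of 8 other receptor genes tested, 1 was higher in Luxoid than in control NKT cells, Ramp3, a partner protein of the calcitonin receptor-like receptor. Ramp3 read 85.3 and 72.1 in control NKT arrays and 346 to 561 in Luxoid arrays, a difference of 2.47 ± 0.25 (limma adjusted p = 0.00213, and 0.0954 without both mixed-sex pools). Against CD4SP cells 2 were higher and 2 lower in control NKT cells, and 3 higher and 1 lower in Luxoid cells.

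The G proteins themselves came next. None of 8 G alpha genes tested was called between the NKT groups or between control NKT and CD4SP cells. Gnai3, a G alpha i subunit, was higher in Luxoid than in CD4SP cells by 0.83 ± 0.18 (limma adjusted p = 0.0132). That call was lost without CD4SP array 2 and without both mixed-sex pools. Of 10 G beta and gamma genes 1, Gng10, was higher in control NKT than in CD4SP cells, by 0.97 ± 0.19 (limma adjusted p = 0.0107). That call was lost without either stage 1 NKT array, without CD4SP array 1 and without both mixed-sex pools. None of the 7 genes of GoLoco proteins and G alpha chaperones or of the 2 arrestins was called in any comparison.

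Of 11 further Rgs genes on the array, Rgs12 and Rgs20 passed the filter, and the 2 genes of RGS-binding proteins in the same list did not. Rgs12, a large R12 protein, was higher in Luxoid than in CD4SP cells by 0.86 ± 0.22 (limma adjusted p = 0.0331). Of 20 settings 13 kept the call. It was lost without CD4SP array 1, Luxoid array 2 or Luxoid array 3, and without both mixed-sex pools. It was also lost with these groups fitted alone, which is the same fit as leaving out either stage 1 NKT array. Of 13 tested genes with an RGS domain outside the family, none was called between the NKT groups. Arhgef1 was lower than in CD4SP cells by a log2 difference of -0.80 ± 0.15 in control and -0.63 ± 0.14 in Luxoid cells (limma adjusted p = 0.00890 and 0.0157). Without CD4SP array 2, or without both mixed-sex pools, neither call held. Leaving out stage 1 NKT array 1 ended that of control NKT cells, and leaving out CD4SP array 1 ended that of Luxoid cells. In all, 1 of these 13 was higher and 1 lower in control NKT cells, and 1 higher and 2 lower in Luxoid cells, against CD4SP cells.

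Of 26 effectors of G proteins tested, none was called between the NKT groups. Control NKT against CD4SP cells had 3 higher and 1 lower, and Luxoid against CD4SP cells 6 higher and 3 lower. All genes tested had 14.9% and 16.8% called in the same comparisons. Pde7a, a phosphodiesterase of cyclic AMP, was higher in Luxoid than in CD4SP cells by 1.25 ± 0.17 (limma adjusted p = 0.00164) in all 21 settings. Pde4d, of the same enzyme class, was lower by a log2 difference of -1.40 ± 0.24 (limma adjusted p = 0.00481), a call lost without CD4SP array 1.

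**Figure D4:**
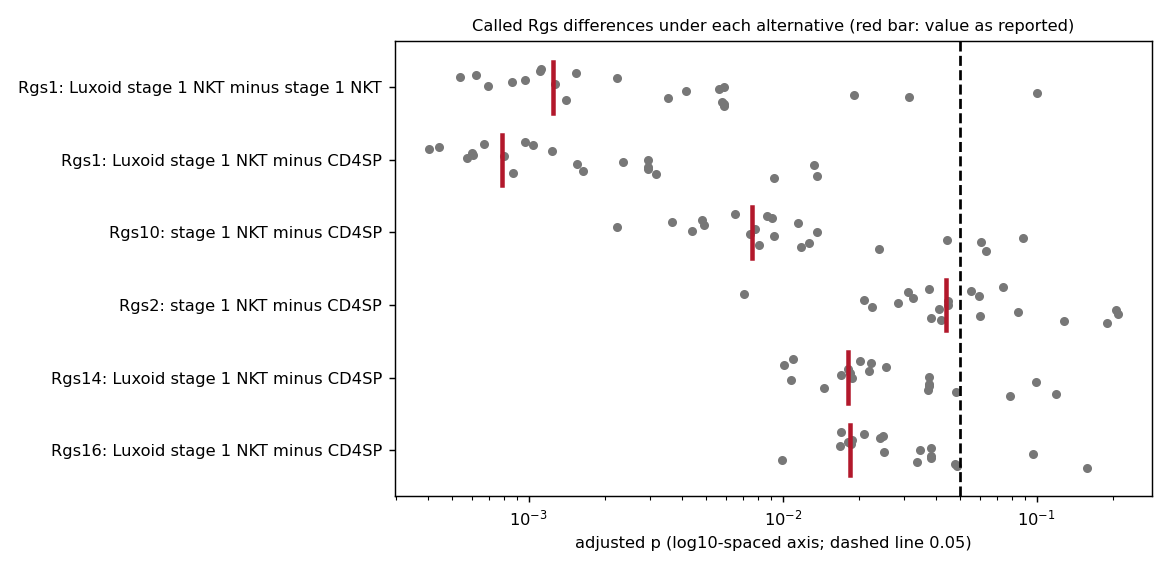
Limma adjusted p of each called Rgs difference under each alternative setting (points; log axis), with a bar at the value as reported and a dashed line at 0.05. The differences drawn are Rgs1 in Luxoid against control NKT and against CD4SP cells, and Rgs10 and Rgs2 in control NKT against CD4SP cells. Rgs14 and Rgs16 are drawn for Luxoid against CD4SP cells. The log2 differences are not drawn. That of Rgs1 stayed between 1.73 and 1.98 in Luxoid against control NKT cells and between 1.32 and 1.57 in Luxoid against CD4SP cells.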

How the data were processed

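Expression was measured in 7 samples of sorted thymocytes on Affymetrix Mouse Genome 430 2.0 arrays, single-colour. RNA was purified with TRIzol and columns, per the labels. The authors deposited linear intensities of 3.08 to 20880, and the submitters' processing notes name RMA and Affymetrix Expression Console, with no versions. RMA equalises the distributions of arrays and shrinks differences where signal is dim.

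The design had allowed for log2 or linear values, and log2 was taken first. Of 45037 probe sets, 34945 carried 1 symbol in GEO's platform annotation, 932 several and 9160 were not listed there. Symbols of 34741 matched RefSeq and 0 were changed. Each gene was represented by its probe set of highest mean log2. Groups were compared with lmFit and eBayes of limma 3.58.1, run in R 4.3.3, with a mean for each group, all 7 arrays, 4 residual and 4.49 prior degrees of freedom, and two-sided tests. It was tested on simulated data. No 2 arrays had identical columns. A fold is written as "at least" where all arrays of the dimmer group are under the filter.

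Members and gene lists were chosen with earlier results of these data known. The rule named all 8 genes, and of each pathway list at most the 4 called genes of largest difference in a comparison. The alternatives covered normalization, filters, probe set choice, variance models, Kdm5d as a covariate, a replicate block, leaving out both mixed-sex pools and leaving out each array. In Luxoid against control NKT cells, leaving out either CD4SP array gave the same fit as these groups alone. So did leaving out either stage 1 NKT array in Luxoid against CD4SP cells. The counts of settings thus include repeats.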

Additional observations from a re-analysis of the deposited data

How the results depend on the processing

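Member calls changed most with the arrays used, and 21 alternative settings were run. Of 432 alternative differences of members, 391 kept direction and side of the threshold, 18 fell short of it, 11 passed it and 12 changed sign. Members called between Luxoid and control NKT cells went from 1 to 0 without both mixed-sex pools, and were 1 with each array left out in turn. Between control NKT and CD4SP cells they went from 2 to 1 with no intensity filter, to 1 with every probe set tested and each gene read by its brightest one (2 other Rgs2 probe sets were called there), to 0 without both mixed-sex pools, and to 0 to 3 with an array left out. Between Luxoid and CD4SP cells they went from 3 to 1 with a stricter filter (306.7, the 75th percentile), to 5 with limma-trend, to 1 without both mixed-sex pools, and to 1 to 3 with an array left out. Rgs14 and Rgs16 did not reach the stricter filter in any array, so they were not tested there. Calls gained under limma-trend were Rgs2 and Rgs10. The mean of probe sets brought Rgs2 and Rgs19 under the threshold between Luxoid and CD4SP cells (limma adjusted p = 0.0169 and 0.0464).

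Sign changes were all in differences near 0. Between Luxoid and control NKT cells Rgs3 turned to -0.0289 with the replicate block and -0.0846 without both mixed-sex pools, and ran from -0.0289 to 0.137 with an array left out. Without both pools Rgs2 turned to 0.0676 and Rgs16 to 0.0557. Between control NKT and CD4SP cells Rgs3 turned to -0.0422 after quantile normalization and ran from -0.0014 to 0.11 with an array left out. Rgs19 turned to 0.0227 with median centring, 0.0357 with the mean of probe sets and 0.00519 with Kdm5d as covariate, and ran from -0.111 to 0.100 with an array left out.

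The cause of these changes was not tested. The fits with an array left out also have fewer arrays, and in them a lone array is assumed to vary like the other groups. Of 1260 list counts under alternatives, 157 moved by over 1.5 times. Genes called between the NKT groups numbered 169, and 10 without both pools, 64 without stage 1 NKT array 1, 55 without array 2 and 103 without Luxoid array 3. Between control NKT and CD4SP cells 1621 became 520 without both pools, 643 to 856 without an array of either group and 2616 with the replicate block. Between Luxoid and CD4SP cells 1831 became 918 without both pools and 978 and 866 without CD4SP array 1 and 2, and with every probe set tested 2876 probe sets were called. The stricter filter moved the median of genes tested from 0.06 to 0.13 between control NKT and CD4SP cells.

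The labels tie arrays across groups by number alone. Arrays numbered 1 all lacked Kdm5d signal and those numbered 2 all had it, so the block also separates them by the sex of the mice. Same-numbered arrays correlated in their deviations from the group means at 0.33 to 0.49, with 2 shared numbers a comparison. In a group of 2 arrays the deviations mirror each other, so these correlations are not independent. Both same-numbered pairs of control NKT and CD4SP arrays gave the same value, 0.431. Luxoid array 3 is the only array of its number, so the block fits that array exactly. Differences with the block thus equal those without Luxoid array 3, as for Rgs1 between the NKT groups (1.95 in each). With the replicate block 1, 3 and 4 members were called in the 3 comparisons. It added Rgs16 (-0.70, limma adjusted p = 0.0319) between control NKT and CD4SP cells and Rgs2 (0.55, limma adjusted p = 0.0370) between Luxoid and CD4SP cells, and ended no member's call.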
